A study of Danio rerio with 6 samples.

Results

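The genes examined here are the zebrafish *pax8* (ENSDARG00000015879), *pax2a* (ENSDARG00000028148) and *pax2b* (ENSDARG00000032578), which are 3 of the 32266 genes in the count table and were found by identifier and chromosome. The libraries came from *pax8*:DsRed-positive cells, isolated by fluorescence-activated cell sorting from whole dissociated embryos at late stages of the otic-epibranchial progenitor domain (OEPD), the tissue that gives rise to the inner ear. The first group is made up of 3 samples from embryos injected at the earliest cell stage with antisense morpholino oligomers against *dlx3b* and *dlx4b* (Dlx3b/4b-depleted), and the second of 3 samples from wild-type embryos. All 6 samples carried the *pax8*:DsRed reporter in heterozygosity, and AB is the wild-type line given in the methods. The labels give the sorted cells as OEPD and nephric anlagen, so that by label each sample is a mixture of otic-epibranchial and kidney precursors. The study's introduction also places progenitors of the anterior lateral line ganglion in the zebrafish OEPD. The proportion of these cells was not measured. Genes of blood and vessel precursors were also abundant in every library, as given at the end, and the share of other cells was not tested. No control injection is described for the wild-type embryos, so that the injection and the knockdown cannot be told apart in these samples. The 3 samples of a group are called biological replicates in the methods, but the number of embryos behind each is not given.

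Pax2, Pax5 and Pax8 form a subfamily of transcription factors that bind DNA through a paired domain. In zebrafish, *pax8* is among the earliest genes switched on in the OEPD, downstream of the competence factor Foxi1, and *pax2a* and its duplicate *pax2b* follow as the otic placode is specified. Pax2 and Pax8 proteins act redundantly in the otic placode and in the pronephros, the embryonic kidney, where they help to specify the intermediate mesoderm. Moreover, Pax2a is needed at the midbrain-hindbrain boundary and, together with Pax8, in the thyroid. Because a *pax8* reporter was used to sort the cells, the presence of *pax8* RNA in them is set by the selection and is not a finding. Both groups were sorted on this reporter, so that the *pax8* level and the ratio of *pax2a* to *pax8* are subject to the gate as well. The part of the gate in these values was not tested.

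In these sorted cells, *pax8* and *pax2a* were both abundant and *pax2b* was barely detected. Between Dlx3b/4b-depleted and wild-type samples, the estimated log2 fold change was 0.35 for *pax8*, −0.26 for *pax2a* and −0.86 for *pax2b*, and none of the 3 genes passed the test at an adjusted p below 0.1. The same threshold called 1911 of the 17526 tested genes, which is 10.9%. At an unadjusted p below 0.05, 1 of the 3 genes (*pax2a*) stood below the limit, compared to 22.6% of all tested genes. The other tool used, DESeq2, also called 0 of the 3 genes, against 2037 genes over the whole table with the replicate block and 3074 without it. With the block it had 1 of the 3 genes, *pax8*, below an unadjusted p of 0.05, and without the block 2, *pax8* and *pax2a*. The share of all genes below that limit was not determined for DESeq2. With the block, DESeq2 gave no adjusted p for *pax2b*, so that this gene could not be called there.

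The number of reads counted on genes was 23846555 to 26250129 in Dlx3b/4b-depleted and 27373965 to 28480101 in wild-type samples. At this depth, 3 counts are worth 0.105 to 0.126 CPM, the unit that sets counts relative to the total of their library. Levels of different genes were compared as RPKM, which is the CPM after TMM scaling, a correction for library composition, divided by the length of the merged exons in kilobases. The share of counts on mitochondrial genes was 2.02 to 2.21% in Dlx3b/4b-depleted and 2.10 to 4.63% in wild-type samples, with the highest value in wild-type replicate 2. The same wild-type replicate also stood apart in the summed level of 6 otic-epibranchial marker genes (*foxi1*, *dlx3b*, *sox9b*, *eya1*, *six1b* and *gata3*). This sum reached 196, 275 and 449 CPM in Dlx3b/4b-depleted replicates 1, 2 and 3, against 332, 973 and 281 CPM in wild-type replicates 1, 2 and 3. In wild-type replicate 2, most of it came from *sox9b* (437 CPM) and *eya1* (214 CPM), which were highest there, as was *six1b*. *foxi1* and *dlx3b* were instead highest in Dlx3b/4b-depleted replicate 3, and *gata3* in Dlx3b/4b-depleted replicate 2. In contrast, the sum of 5 nephric markers (*lhx1a*, *osr1*, *hnf1ba*, *wt1a* and *cdh17*) was 666 to 750 CPM in Dlx3b/4b-depleted and 693 to 703 CPM in wild-type samples. Otic and nephric markers were thus present in every library, with the more even sums on the nephric side. This evenness holds for the sum of these 5 markers and not for each of them. *osr1* was called higher (161 against 96.0 CPM on average) and *cdh17* lower (36.5 against 78.0 CPM) in Dlx3b/4b-depleted samples. A longer list of 11 nephric genes, described below, summed to 1535 to 1926 CPM in Dlx3b/4b-depleted and 1816 to 2164 CPM in wild-type samples.

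*pax8* was listed at 71633658 to 71643280 on chromosome 5, on the reverse strand, with 12 exons that add up to 2379 bp. Raw counts of *pax8* were 10633, 7037 and 7628 in Dlx3b/4b-depleted replicates 1, 2 and 3, against 6994, 8125 and 6626 in wild-type replicates 1, 2 and 3. After scaling, these were 415, 265 and 322 CPM in Dlx3b/4b-depleted samples, against 249, 304 and 227 CPM in wild-type samples. The groups overlapped, since Dlx3b/4b-depleted replicate 2 lay below wild-type replicate 2. Dlx3b/4b-depleted replicate 1 had the highest level of all. The mean was 334 ± 75.9 CPM in Dlx3b/4b-depleted and 260.1 ± 39.3 CPM in wild-type samples (SD, n = 3 each). Per length, this was 140.5 ± 31.9 RPKM in Dlx3b/4b-depleted and 109.3 ± 16.5 RPKM in wild-type samples. In edgeR's quasi-likelihood test, the log2 fold change of 0.35 had a standard error of 0.16 and a 95% interval of −0.02 to 0.72, with an adjusted p of 0.241. On a linear scale, the interval ran from 0.988-fold to 1.64-fold. The difference thus did not stand out from the spread between replicates, and the interval includes both equal levels and an increase larger than the point estimate of 1.27-fold.

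The estimate for *pax8* depended on the samples included. Those numbered 2 were the lowest of the Dlx3b/4b-depleted and the highest of the wild-type samples, and Dlx3b/4b-depleted replicate 1 was the highest of all. Without replicate 2 of both groups, the log2 fold change was 0.63 with an adjusted p of 0.0125, and *pax8* was then called higher in Dlx3b/4b-depleted samples. With the block, leaving out either of these samples alone leaves its partner without weight in the comparison, so that single samples were left out in the model without the block. There, *pax8* had a log2 fold change of 0.51 without Dlx3b/4b-depleted replicate 2 and was not called (adjusted p = 0.130), and one of 0.49 without wild-type replicate 2, where it was called (adjusted p = 0.0887). Without replicate 1 of both groups, the value was 0.15 and was not called (adjusted p = 0.851). In the model without the block, it was 0.36 with all samples and 0.17 without Dlx3b/4b-depleted replicate 1 (adjusted p = 0.547). Without wild-type replicate 1, it was 0.33 there (adjusted p = 0.364). Wild-type replicate 2 also had the highest otic marker sum, most of it from *sox9b* and *eya1*. The part of that library's composition in the *pax8* value was not tested. In a bulk sample, more cells with *pax8* RNA and more *pax8* RNA per cell cannot be told apart.

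*pax2a* was listed at 29640387 to 29674090 on chromosome 13, on the forward strand, with 13 merged exons that add up to 4144 bp. The raw counts were 15374, 13877 and 12904 in Dlx3b/4b-depleted replicates 1, 2 and 3, against 18302, 19916 and 17698 in wild-type replicates 1, 2 and 3. Scaled levels were 600.5, 523 and 545 CPM in Dlx3b/4b-depleted samples, against 652, 744 and 607 CPM in wild-type samples. Here all Dlx3b/4b-depleted samples lay below all wild-type samples, by a narrow margin between Dlx3b/4b-depleted replicate 1 and wild-type replicate 3. Groups that did not overlap, with the lower values in Dlx3b/4b-depleted samples, were found for 16.4% of the tested genes, and for 31.5% in either direction, so that such an arrangement was common in these libraries. Of the 3 Pax genes, 1 had groups that did not overlap. The means were 556 ± 40.1 CPM in Dlx3b/4b-depleted and 668 ± 69.9 CPM in wild-type samples (SD, n = 3 each), which is 134.2 ± 9.67 RPKM in Dlx3b/4b-depleted and 161.2 ± 16.9 RPKM in wild-type samples.

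The log2 fold change of *pax2a* was −0.26 with a standard error of 0.11, an interval of −0.51 to −0.01 and an adjusted p of 0.2003 in edgeR's test. The level in Dlx3b/4b-depleted samples was thus estimated at 0.834 of that in wild-type, and the difference did not pass the correction for multiple testing. The interval of this ratio ran from 0.702 to 0.992. A larger size of change, in either direction, was seen for 50.2% of all tested genes, and 12.8% of them had a smaller standard error. The smallest log2 fold change called in either direction over the whole table was 0.30 in size. *pax2a* was called when wild-type replicate 3 was left out of a model without the replicate block (log2 fold change −0.33, adjusted p = 0.0941), but in none of the other 14 fits with a sample or both samples of a number left out.

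*pax2b* was listed at 45637903 to 45714171 on chromosome 12, on the reverse strand, with 10 merged exons that add up to 2669 bp. Only 4, 23 and 16 counts were found in Dlx3b/4b-depleted replicates 1, 2 and 3, against 24, 39 and 17 in wild-type replicates 1, 2 and 3. This amounts to 0.156 CPM in Dlx3b/4b-depleted replicate 1, with an exact Poisson interval of 0.0426 to 0.400 CPM at 95% that covers counting error only. The other Dlx3b/4b-depleted samples had 0.866 and 0.676 CPM, against 0.855, 1.46 and 0.583 CPM in wild-type samples. Both groups overlapped, and Dlx3b/4b-depleted replicate 1 and wild-type replicate 2 formed the extremes. The mean was 0.566 ± 0.367 CPM in Dlx3b/4b-depleted and 0.965 ± 0.448 CPM in wild-type samples (SD, n = 3 each). With a log2 fold change of −0.86, a standard error of 0.60 and an interval of −2.22 to 0.49, a difference was not detected (edgeR adjusted p = 0.434). The biological coefficient of variation, edgeR's estimate of the spread between replicates beyond counting, was 41.4% for *pax2b*, compared to 14.95% for *pax8* and 11.2% for *pax2a*.

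**Figure D1:**
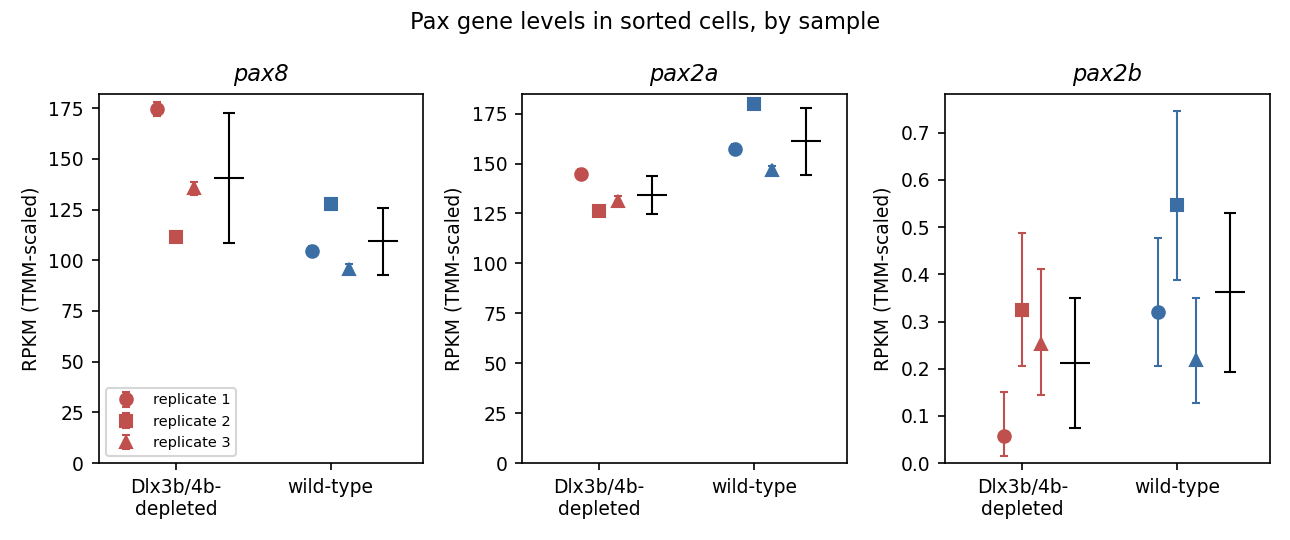
Levels of *pax8*, *pax2a* and *pax2b* in RPKM (TMM-scaled) on linear vertical axes that differ between panels, for each Dlx3b/4b-depleted sample (red, left) and each wild-type sample (blue, right). Thin bars on the points are exact Poisson counting intervals at 95%, black bars are the mean ± SD (n = 3), and circles, squares and triangles mark replicates 1, 2 and 3. *pax8* and *pax2a* lie between 95.6 and 179.6 RPKM, whereas *pax2b* reaches 0.546 RPKM at most, and the groups are separate for *pax2a* alone.

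None of the 3 genes shared exon positions with another listed gene. *pax8* was the last gene listed on chromosome 5, and its neighbour at lower coordinates, *ddx54*, which encodes an RNA helicase, lies 9420 bp away. *ddx54* averaged 71.2 ± 2.26 RPKM in Dlx3b/4b-depleted and 68.3 ± 5.37 RPKM in wild-type samples (SD, n = 3 each), with a log2 fold change of 0.06 (adjusted p = 0.750). The nearest counted neighbour of *pax2a* was *cuedc2*, at 120856 bp, which had 15.6 ± 0.571 RPKM in Dlx3b/4b-depleted and 16.0 ± 0.356 RPKM in wild-type samples (SD, n = 3 each) and a log2 fold change of −0.04 (adjusted p = 0.877). The other neighbour of *pax2a*, a *5S_rRNA* gene, had 0 counts. On the side of *pax2b*, the gene *si:ch1073-307h15.1* had 0 counts and ENSDARG00000093365 had a mean count of 2.67, which did not pass the filter on low counts. The genes next to the 3 loci were thus either hardly counted or close to the same level in both groups.

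Ranked by RPKM among the 17526 tested genes of each library, *pax2a* took places 370 to 531 and *pax8* places 376 to 739, with percentiles of 95.8 to 97.9 for both. *pax2b* took places 14672 to 17227, with percentiles of 1.71 to 16.3. Over all samples, the mean level was 147.7 ± 19.2 RPKM for *pax2a* and 124.9 ± 28.4 RPKM for *pax8* (SD, n = 6 each), and the ranges of both genes overlapped.

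Within a library, the ratio of *pax2a* to *pax8* does not depend on the scaling between libraries. In reads per kilobase, with a prior count of 2, it was 0.830, 1.13 and 0.971 in Dlx3b/4b-depleted replicates 1, 2 and 3, against 1.502, 1.41 and 1.53 in wild-type replicates 1, 2 and 3. *pax2a* thus exceeded *pax8* in all 3 wild-type libraries and in 1 of the 3 Dlx3b/4b-depleted libraries, and the groups did not overlap. How often ratios of other gene pairs separate the groups was not determined. Among single tested genes, 31.5% had groups that did not overlap in either direction. On the log2 scale, the ratio averaged −0.04 ± 0.22 in Dlx3b/4b-depleted and 0.57 ± 0.06 in wild-type samples (SD, n = 3 each). The difference of −0.61, a ratio of the ratios of 0.655, had p = 0.1 in a two-sided exact permutation test, which is the smallest p that 3 against 3 samples allow, and 0.3 after adjustment over the 3 ratios compared. When each sample was left out in turn, the difference stayed between −0.72 and −0.50.

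The ratio combines both genes and cannot tell which of them differs. The shares of *pax8* that follow restate it, since *pax2b* adds at most 0.177% to the summed RPKM. *pax8* made up 54.6, 46.8 and 50.7% of the summed RPKM of the 3 genes in Dlx3b/4b-depleted replicates 1, 2 and 3, against 39.9, 41.5 and 39.4% in wild-type replicates 1, 2 and 3. The sum itself was 319.5, 238 and 267 RPKM in Dlx3b/4b-depleted samples, against 262, 308 and 242 RPKM in wild-type samples, and these groups overlapped. For *pax2b*, the log2 ratio to *pax2a* differed by −0.56 (p = 0.6, adjusted 0.6) and that to *pax8* by −1.17 (p = 0.2, adjusted 0.3) in exact permutation tests. Without single samples, these differences ran from −0.99 to 0.11 and from −1.71 to −0.38, and they rest on few counts.

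**Figure D2:**
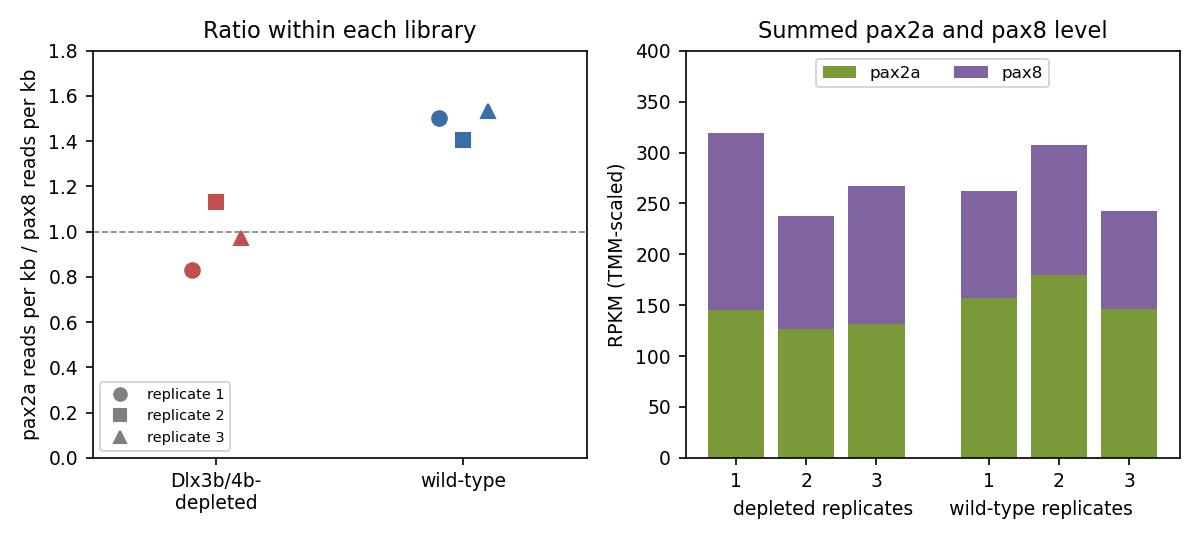
Left, the ratio of *pax2a* to *pax8* in reads per kilobase within each library (linear axis, dashed line at equal levels), with Dlx3b/4b-depleted samples in red and wild-type samples in blue. Right, the levels of both genes stacked in RPKM (TMM-scaled) for each library. The ratio is 0.830 to 1.13 in Dlx3b/4b-depleted and 1.41 to 1.53 in wild-type samples, whereas the stacked levels of the groups overlap.

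The estimates for *pax8* and *pax2a* kept their size under the other normalizations, filters and tools that used all samples. *pax8* ranged from 0.34 to 0.38 and was called only when no filter on low counts was applied (0.36, adjusted p = 0.0508). *pax2a* ranged from −0.29 to −0.25 and was not called by any of these settings.

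**Figure D3:**
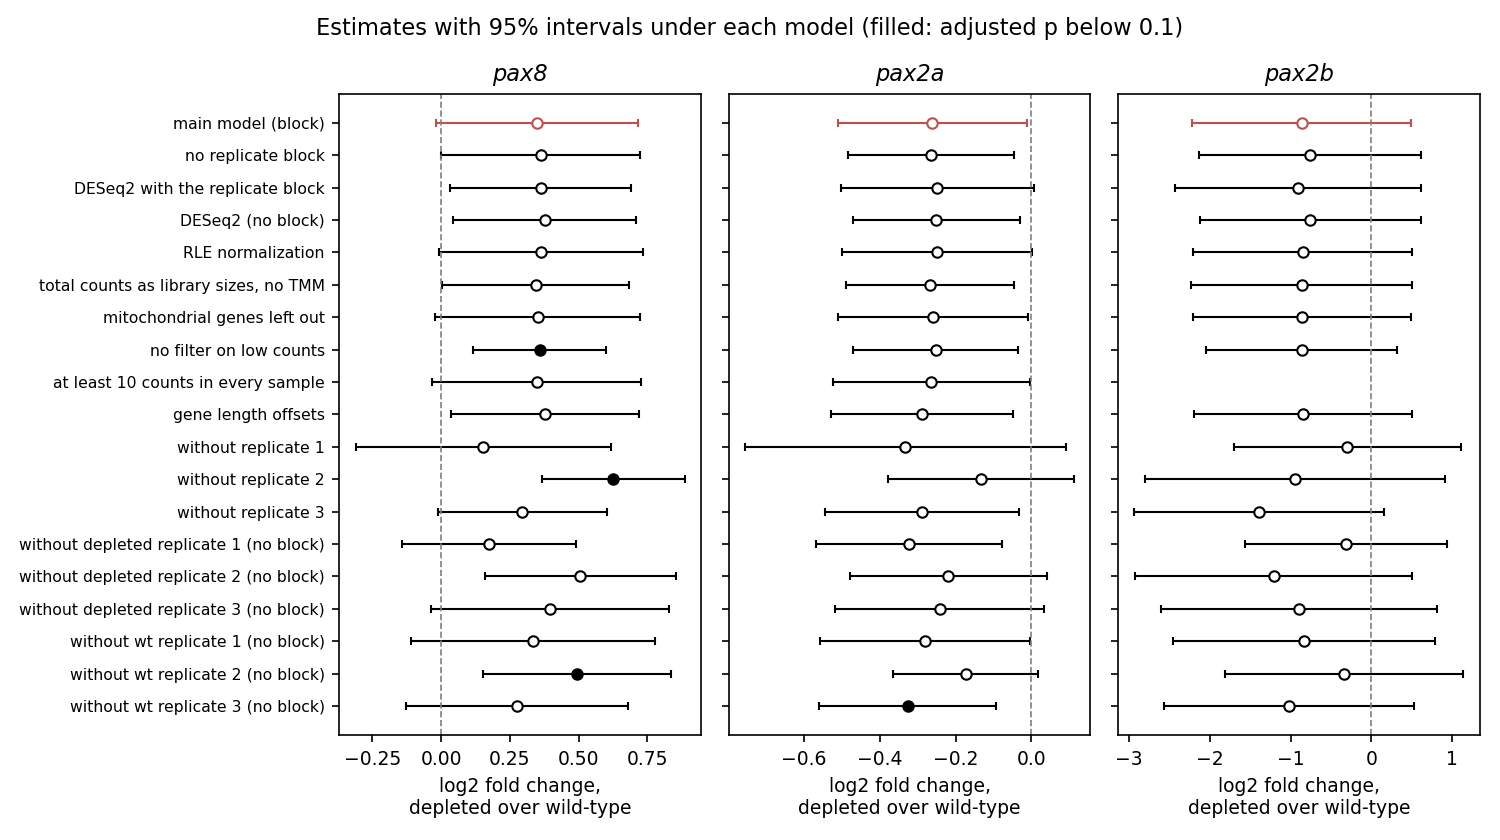
Log2 fold changes of Dlx3b/4b-depleted over wild-type samples with 95% intervals, for *pax8*, *pax2a* and *pax2b* (horizontal axes differ between panels), under the model with the replicate number as a block (red) and under the alternatives (black). Filled points have an adjusted p below 0.1, and *pax2b* has no value where at least 10 counts were required in every sample. The *pax8* estimates run from 0.15 to 0.63 when samples are left out, and no estimate of the 3 genes changes its sign.

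Compared with the rest of the Pax family, *pax2a* and *pax8* stood alone at their level. Of the 12 other Pax genes listed, 7 passed the filter on low counts, and the highest was *pax3a*, which acts in the dorsal neural tube and neural crest, with a mean of 3.29 RPKM over all samples. *pax6b* and *pax6a*, known for the eye and the pancreas, followed with 1.86 and 1.55 RPKM, and their ranges overlapped with each other and with that of *pax3a*. *pax3b* (0.422 RPKM), *pax2b* (0.287 RPKM) and *pax5* (0.273 RPKM) came next and had overlapping ranges, followed among the tested genes by *pax7b* (0.153 RPKM) and *pax7a* (0.0617 RPKM). *pax5*, the remaining member of the Pax2/5/8 subfamily and a gene of the midbrain-hindbrain boundary, had 2, 21 and 21 counts in Dlx3b/4b-depleted replicates 1, 2 and 3, against 6, 6 and 18 in wild-type replicates 1, 2 and 3. Its log2 fold change of 0.55 had a standard error of 0.73 (adjusted p = 0.702).

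Among the 7 tested Pax genes other than *pax2a*, *pax2b* and *pax8*, 1 was called higher in Dlx3b/4b-depleted samples and 0 were called lower. Over all tested genes, 4.85% were called higher and 6.05% lower. The median log2 fold change of the 7 genes was 0.43, compared to −0.01 over all tested genes. This median is the value of *pax6b*, which was not called (edgeR adjusted p = 0.330). *pax3b*, *pax5*, *pax7a* and *pax7b* had mean counts of only 12.3 to 20.7 and standard errors of 0.55 to 0.76. The gene that rose was *pax3a*, with 498, 612 and 544 counts in Dlx3b/4b-depleted replicates 1, 2 and 3, against 242, 215 and 183 in wild-type replicates 1, 2 and 3. Every Dlx3b/4b-depleted sample was above every wild-type sample, an arrangement found for 15.1% of the tested genes. The log2 fold change was 1.52 with a standard error of 0.18 (edgeR adjusted p = 0.00442), and *pax3a* was also the gene of this list called without the replicate block and without replicate 2.

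**Figure D4:**
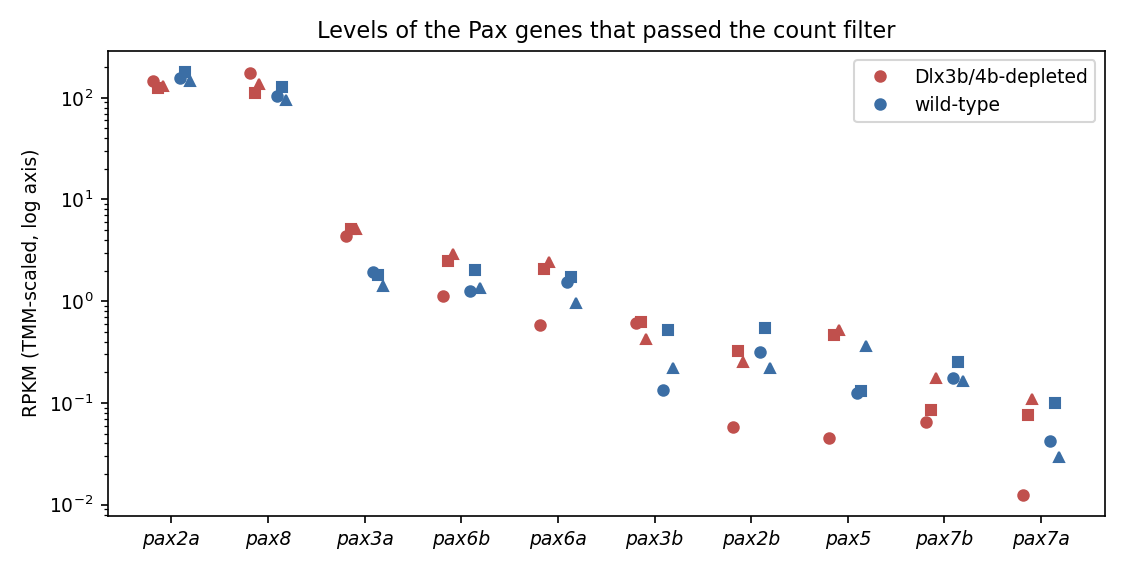
Levels of the 10 Pax genes that passed the filter on low counts, in RPKM (TMM-scaled) on a log axis, ordered by their mean over all samples. Red symbols are Dlx3b/4b-depleted and blue symbols wild-type samples, with circles, squares and triangles for replicates 1, 2 and 3. *pax2a* and *pax8* have at least 95.6 RPKM in every library, the other Pax genes plotted at most 5.15 RPKM, and *pax3a* is the gene with separate groups that passed the test.

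Of the 19 listed otic genes that act with Pax2 and Pax8 or are expressed beside them, 18 were tested, 0 were higher and 3 were lower in Dlx3b/4b-depleted samples, and their median log2 fold change was −0.25. Over all genes, 4.85% were called higher and 6.05% lower. *sox9b*, a transcription factor of the otic placode, had 26.8, 34.6 and 54.9 CPM in Dlx3b/4b-depleted replicates 1, 2 and 3, against 106, 437 and 89.5 CPM in wild-type replicates 1, 2 and 3 (log2 fold change −2.11, adjusted p = 0.0317). *tbx2b*, a T-box factor, had 15.0, 18.7 and 32.0 CPM in Dlx3b/4b-depleted samples, against 57.5, 158 and 48.4 CPM in wild-type samples (log2 fold change −1.87, adjusted p = 0.0266). For both genes the groups were separate, as for 16.4% of the tested genes with lower values in Dlx3b/4b-depleted samples. Wild-type replicate 2 was far above the other samples for both. The claudin gene *cldna* had 9.26, 19.7 and 49.8 CPM in Dlx3b/4b-depleted samples, against 55.5, 186 and 42.9 CPM in wild-type samples (log2 fold change −1.91, adjusted p = 0.0868). Its groups overlapped, and it was not called without the replicate block (adjusted p = 0.108) or without replicate 2 of both groups (adjusted p = 0.225).

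The other genes of the otic list were not called. *foxi1*, which provides the competence to express *pax8*, had a log2 fold change of 0.20 (adjusted p = 0.872), and *gata3*, which is expressed in the ear and the nephric duct, one of 0.12 (adjusted p = 0.549). *fgf8a* and *fgf24*, ligands of the Fgf family, had values of 0.34 and −0.44 (adjusted p = 0.414 and 0.180). For the placode genes *eya1*, *six4b* and *six1b*, which encode a transcriptional cofactor and homeodomain proteins that act together, the values were −1.09, −1.11 and −1.13, with adjusted p of 0.107, 0.122 and 0.261. *dlx3b*, a target of the injected morpholinos, had 51.2, 78.7 and 180 CPM in Dlx3b/4b-depleted replicates 1, 2 and 3, against 48.0, 144 and 30.2 CPM in wild-type replicates 1, 2 and 3 (adjusted p = 0.595). *dlx4b*, the other target, had 4.26, 8.47 and 23.9 CPM in Dlx3b/4b-depleted samples, against 6.16, 25.2 and 3.84 CPM in wild-type samples (adjusted p = 0.959). RNA levels of a morpholino target do not measure its protein and hence do not check the knockdown. Without replicate 2 of both groups, *sox9b* and *tbx2b* were still called lower (log2 fold changes of −1.34 and −1.25), and *dlx3b* was called higher at 1.34 (adjusted p = 0.0965). Leaving out wild-type replicate 2 alone, with the block, amounts to the same comparison and is not a separate result.

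Of the 11 listed nephric genes, which include *gata3* and *hnf1ba* of the otic list, 10 were tested, 2 were higher and 2 were lower in Dlx3b/4b-depleted samples, and the median log2 fold change was 0.08. The shares over all tested genes were 4.85% higher and 6.05% lower. *osr1*, a zinc finger factor of the intermediate mesoderm, rose to 168, 154 and 161 CPM in Dlx3b/4b-depleted replicates 1, 2 and 3, against 112, 94.3 and 81.5 CPM in wild-type replicates 1, 2 and 3 (log2 fold change 0.76, adjusted p = 0.00839). *hand2*, a factor of the lateral plate mesoderm, also rose and had 211, 164 and 196 CPM in Dlx3b/4b-depleted samples, against 174, 117 and 117 CPM in wild-type samples (log2 fold change 0.50, adjusted p = 0.0364). The groups were separate for *osr1*, as for 15.1% of the tested genes in this direction, and overlapped for *hand2*.

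In contrast, *cdh17*, a cadherin gene of the pronephric tubule, fell to 25.4, 48.8 and 35.1 CPM in Dlx3b/4b-depleted samples, against 69.8, 86.5 and 77.8 CPM in wild-type samples (log2 fold change −1.14, adjusted p = 0.00442). *hnf1bb*, a homeobox gene of the kidney primordium, fell to 890, 728 and 575 CPM in Dlx3b/4b-depleted samples, against 1219, 908 and 1126 CPM in wild-type samples (log2 fold change −0.58, adjusted p = 0.0405). Both had separate groups, an arrangement found in this direction for 16.4% of the tested genes. *lhx1a*, a marker of the intermediate mesoderm whose expression overlaps with that of *pax8* and *pax2a* in this tissue, had a log2 fold change of 0.04 (adjusted p = 0.874), *hnf1ba* one of −0.22 (adjusted p = 0.256) and *wt1a*, a gene of the podocyte precursors, one of 0.22 (adjusted p = 0.449). The numbers of nephric genes called, 2 higher and 2 lower, were the same without the replicate block and without replicate 2.

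**Figure D5:**
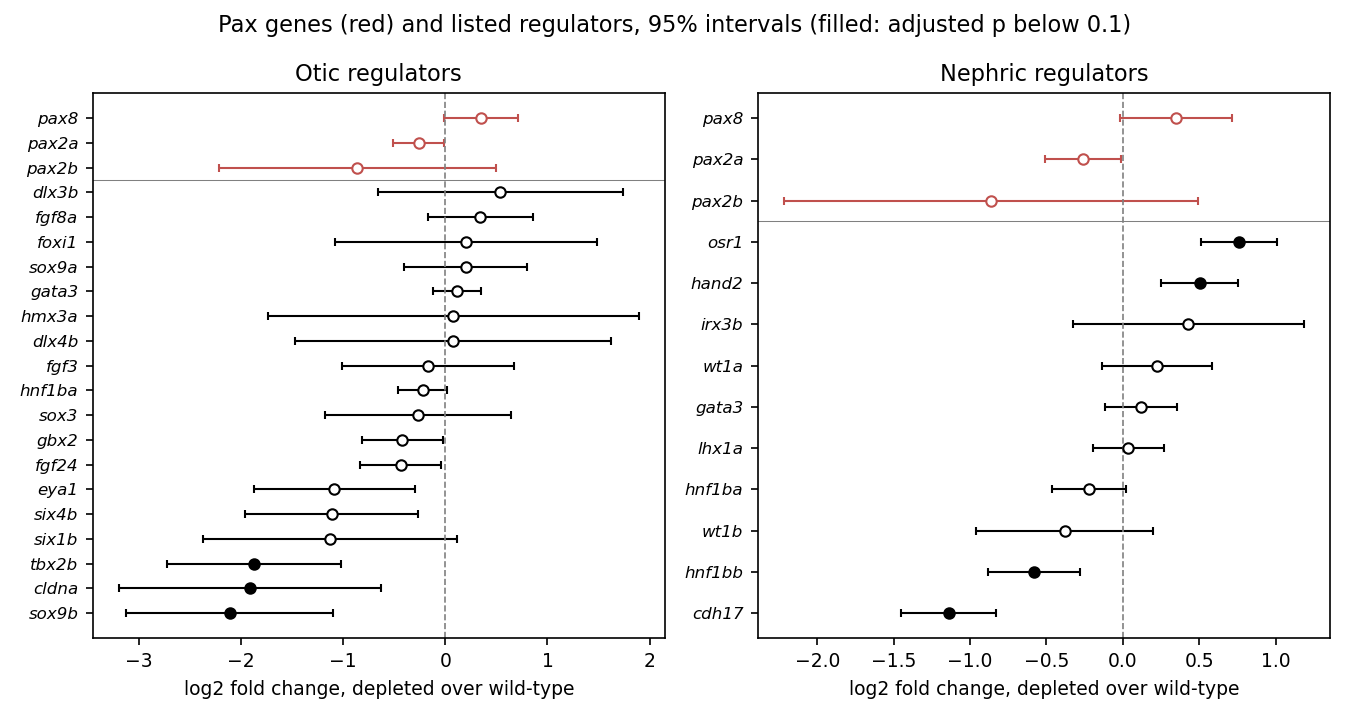
Log2 fold changes of Dlx3b/4b-depleted over wild-type samples with 95% intervals for *pax8*, *pax2a* and *pax2b* (red, top of each panel) and the tested genes of the otic list (left) and the nephric list (right) in black. Filled points have an adjusted p below 0.1. In the otic list *sox9b*, *cldna* and *tbx2b* were called lower, and in the nephric list *osr1* and *hand2* were called higher and *hnf1bb* and *cdh17* lower, whereas the 3 Pax genes are all open points.

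To find the genes most like each Pax gene, profiles of log2 CPM centred over the 6 samples were compared by their root mean square difference, among 11391 candidate genes. For *pax2a*, 400 genes lay within 0.1 of its profile and 190 within 0.5 times its own deviation from a flat line. The closest were ENSDARG00000071240 (0.0190), *mhc1laa* (0.0203), *znrf3* (0.0289), *gpatch4* (0.0315) and *cdc6* (0.0319), and the own deviation of *pax2a* was 0.168. For *pax8*, with an own deviation of 0.284, 15 genes lay within 0.5 times that deviation. Only *tvp23b* lay within 0.1 (0.0927), followed by *arhgap32b* (0.102), *phactr4b* (0.104), *spryd3* (0.107) and *gtf3c4* (0.107). For *pax2b*, with an own deviation of 0.834, 75 genes lay within 0.5 times that deviation and 0 within 0.1. Its closest were *sema3fb* (0.158), *mapk12a* (0.176), *apcdd1l* (0.191), *col1a2* (0.205) and *wnt11* (0.208), all of them low in Dlx3b/4b-depleted replicate 1 and high in wild-type replicate 2. None of these 15 genes was called in the comparison of the groups, against 10.9% of all tested genes. They were chosen for profiles close to those of Pax genes that were not called, so that this count is not a separate result. Among the Pax genes themselves, the distance was 0.333 between *pax8* and *pax2a*, 0.792 between *pax2a* and *pax2b* and 1.03 between *pax8* and *pax2b*.

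Markers of the midbrain-hindbrain boundary, where Pax2a is needed, and of the forebrain and muscle were compared in the same libraries. The sum of 6 midbrain-hindbrain boundary genes (*en2a*, *en2b*, *her5*, *wnt1*, *fgf8a* and *pax5*) was 17.6 to 34.5 CPM in Dlx3b/4b-depleted and 19.4 to 26.1 CPM in wild-type samples. Of these 6, 0 were called, against 10.9% of all tested genes. Most of this sum in every library came from *fgf8a*, which is also on the otic list. *fgf8a* had 14.6 to 23.1 CPM in Dlx3b/4b-depleted and 12.8 to 19.0 CPM in wild-type samples. Genes of the forebrain, 4 of which were tested, reached 7.85 to 34.6 CPM in Dlx3b/4b-depleted and 11.9 to 26.3 CPM in wild-type samples, and those of muscle, with 2 tested, 7.38 to 13.1 CPM in Dlx3b/4b-depleted and 6.88 to 11.5 CPM in wild-type samples, again with 0 called. At a share of 10.9% over all tested genes, lists this short can hold 0 called genes, so that these counts show no lack of change. No marker gene that was matched was at 0 in every library. Dlx3b/4b-depleted replicate 1 had the highest *pax8* and the lowest *pax2b* level. It was also the library with the lowest otic-epibranchial, midbrain-hindbrain boundary and forebrain marker sums. Among the otic markers, *foxi1*, *sox9b* and *eya1* were lowest in this library, whereas *dlx3b*, *six1b* and *gata3* were not. Its sum of the 5 nephric markers was the highest, at 750 CPM. For the 11 listed nephric genes, however, its sum of 1926 CPM was below wild-type replicates 1 and 3 (2164 and 2028 CPM). The part of this library's composition in the *pax8* and *pax2b* values was not tested.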

How the data were processed

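RNA sequencing was analysed for 3 Dlx3b/4b-depleted and 3 wild-type samples of *pax8*:DsRed-positive cells, grouped and numbered by the sample labels. The deposited values are raw counts, for which the authors aligned the reads with GSNAP and assigned those with a unique position to genes with featureCounts, with no scaling. The methods name GRCz11, whereas the submitters' processing notes list GRCz10, bcl2fastq 2.17.1.14 and featureCounts 1.5.2, so that positions are given as in the deposited table and the build is not settled. The labels describe a strand-specific poly(A) kit and the methods Smart-seq2, and the counting is not stated to use strand. The table held 92 spike-in features with 0 counts, which were left out. Name tables gave a symbol for 26433 identifiers, with paralogs told apart by chromosome in RefSeq.

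The test was edgeR's quasi-likelihood test (version 4.0.16, R 4.3.3) after TMM scaling and filterByExpr, over all 17526 genes that passed the filter, with p-values adjusted after Benjamini and Hochberg and called below 0.1. The replicate number entered as a block, because the methods describe a model with more than a single factor, to account for clutches. The methods sentence before that names a comparison with unlesioned samples, which is not the comparison of these groups. Deviations from the group means correlated at 0.16, 0.05 and −0.14 across genes for same-numbered samples, so that the numbers were not shown to pair the samples. Standard errors are the fold change divided by the root of the F statistic. Ratios within a library were tested with exact permutation tests in scipy 1.17.1. By rule, the text names the 3 genes, their neighbours, the listed genes and the 5 genes most like each, with a mean count above 100. The code was tested on simulated data. DESeq2 1.42.0 and the other alternatives are given in the closing section. The 3 genes and the gene lists were chosen with earlier results of these data known. *etv2* and *nkx2.4b* of the marker lists found no match and were not analysed here.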

Additional observations from a re-analysis of the deposited data

How the results depend on the processing

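No sign of the 3 Pax genes changed under any alternative. With all samples, *pax8* was called only with no filter on low counts (log2 fold change 0.36, adjusted p = 0.0508). When single samples or both samples of a number were left out, with or without the replicate block, *pax8* ranged from 0.15 to 0.63 (adjusted p 0.00987 to 0.856), *pax2a* from −0.33 to −0.13 (0.0941 to 0.618) and *pax2b* from −1.41 to −0.30 (0.222 to 0.916). *pax8* was called without replicate 2 (0.63), without Dlx3b/4b-depleted replicate 2 (0.62), without wild-type replicate 2 (0.62, and 0.49 with no replicate block), but not with no block without Dlx3b/4b-depleted replicate 2 (0.51, adjusted p = 0.130). With the block, leaving out a single sample amounts to leaving out both samples with its number. *pax2a* was called without wild-type replicate 3 and with no block (−0.33). The cause was not tested. The number of genes called over the whole table ranged from 185 to 4144 when samples were left out, against 1911 with all samples. With no block it was 985 without Dlx3b/4b-depleted replicate 1, 932 without Dlx3b/4b-depleted replicate 2 and 1400 without Dlx3b/4b-depleted replicate 3. In the same model it was 1263, 1941 and 2407 without wild-type replicates 1, 2 and 3. It was 997 at an adjusted p below 0.05 and 3074 in DESeq2 without the block, 1512 higher and 1562 lower.

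A fit with no replicate block gave log2 fold changes of 0.36 for *pax8* (adjusted p = 0.197), −0.26 for *pax2a* (0.132) and −0.76 for *pax2b* (0.480), with none called, and it called 2405 genes over the whole table. *pax2b* was not tested with at least 10 counts in every sample, and it had no adjusted p in DESeq2 with the block. The counts for the gene lists without the block, without replicate 2 and without wild-type replicate 2 were added after seeing the data. *pax2b* had 4 to 39 counts per library and a biological coefficient of variation of 41.4%, and their parts in the width of its interval were not tested.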

Other observations

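Genes of blood and vessel precursors, which arise beside the nephric anlagen, were abundant in the sorted cells. The sum of *gata1a*, *tal1* and *lmo2* was 1736 to 1845 CPM in Dlx3b/4b-depleted and 2169 to 2853 CPM in wild-type samples, and the groups did not overlap. Among single tested genes, 16.4% had groups that did not overlap with the lower values in Dlx3b/4b-depleted samples, and 6.05% were called lower. *gata1a*, the factor that drives erythroid differentiation, fell to 127.5, 189 and 177 CPM in Dlx3b/4b-depleted replicates 1, 2 and 3, against 343, 304 and 399.8 CPM in wild-type replicates 1, 2 and 3 (log2 fold change −1.09, edgeR adjusted p = 0.00542). *lmo2*, a cofactor of early blood and endothelial cells, fell by 0.41 on the log2 scale (adjusted p = 0.0580), and *tal1* had a log2 fold change of −0.38 (adjusted p = 0.123). *tal1* joined the called genes without the replicate block and without replicate 2, where all 3 genes of this list were lower. Over the whole table, these fits called 2405 and 1009 genes, against 1911 in the main fit.

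In the thyroid and endoderm list, *hhex*, which is expressed in the thyroid primordium with Pax2a and Pax8 and also in blood and vessel precursors, fell to 26.4, 31.5 and 31.7 CPM in Dlx3b/4b-depleted replicates 1, 2 and 3, against 48.2, 43.3 and 45.4 CPM in wild-type replicates 1, 2 and 3 (log2 fold change −0.61, edgeR adjusted p = 0.0298). *sox17*, an endoderm gene, had 1.63 CPM in Dlx3b/4b-depleted and 2.08 CPM in wild-type samples on average (adjusted p = 0.699). Whether the share of such cells in the sort moves with the *pax8* and *pax2a* values was not tested.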
